A study of Homo sapiens with 12 samples.

Results

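The protein-coding zinc finger genes of chromosome 19 were followed through total RNA, streptavidin-bound RNA and protein-protected footprints. They were taken as the genes on chromosome 19 that are listed as protein-coding and whose symbol is ZNF followed by a number and at most 1 letter. This gave 248 of the 57773 genes in the RNA tables, and of 19279 that are protein-coding. The 248 entries carry 245 symbols, since ZNF223, ZNF709 and ZNF763 each stand on a pair of Ensembl identifiers. A gene length above 0 was listed for 245 of them, and 247 were found in the footprint sheets. Another 259 protein-coding genes of the same name pattern lie on other chromosomes and serve below as the nearest set for comparison.

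All samples, the control included, came from HEK293 T-REx cells, a human embryonic kidney line, grown with 4-thiouridine and doxycycline (16 h), then with biotin-phenol (30 min). Hydrogen peroxide started the biotinylation, ultraviolet light crosslinked protein to RNA, and streptavidin recovered the biotinylated proteins with their RNA. The lines other than the control inducibly express the peroxidase APEX2 from a stable insertion: V5-APEX2-NES carries a nuclear export signal, V5-H2B-APEX2 a histone, and Connexin43-EGFP-APEX2 a gap junction protein of the plasma membrane, and they are called NES, H2B and CX43 here. The control is the T-REx line without APEX2, handled in the same way, so what it yields on streptavidin is the background of the capture. Each line gave 1 total RNA, 1 bound RNA and 1 footprint sample, 12 samples in 12 groups, so no comparison has a replicate and no test between lines was possible. The RNA was deposited in a table of 2016 without H2B, with a single total RNA column for all lines, and a table of 2017 with all lines. Whether the tables hold separate cultures is not stated in the labels, and they are treated as repeat measurements of 1 sample. Errors given below cover counting only.

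C2H2 zinc finger proteins bind DNA through tandem finger repeats, and most of those encoded on chromosome 19 also carry a KRAB domain. That domain recruits TRIM28 (KAP1), and with it the histone methyltransferase SETDB1 and HP1 proteins, to silence transposable elements and other targets. The genes arose by repeated duplication and stand in clusters along the chromosome, so neighbouring members often share long stretches of coding sequence.

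Run 1 below is the run of 24 bases that the most members share. Runs 2 to 4 are its most shared variants within 3 bases. All 4 are shown because they bear on how reads could be assigned. They span the conserved linker that joins one finger to the next, read 5′ to 3′ on the coding strand from GENCODE 29 coding sequences of 246 members, with capitals marking the bases that differ from run 1.
run 1: aattcatactggagagaaacctta
run 2: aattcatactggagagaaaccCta
run 3: aaCtcaCactggagagaaaccCta
run 4: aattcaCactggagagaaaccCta
Run 1 stood in 40 members, run 2 in 38, and runs 3 and 4 in 17 each. Run 2 occurred 138 times and run 1 66 times, because a member can repeat it in finger after finger. A stretch within 3 bases of run 1 was found in 179 of the 246 members, and ZNF729 held 33 of them. Of all runs of 24 bases in a member's coding sequence, a median of 14.1% (quartiles 5.76% and 35.3%) occurred in another member too, and in 23 members the share was above 50%. A short read from such a stretch has more than 1 possible source, and the way such reads were counted is not stated. Members with high shares, such as ZNF587 (82.8%), ZNF93 (45.4%) and ZNF91 (39.2%), are therefore less certain than ZNF507 or ZNF428, which share no such run.

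The gene tables held 8959049 to 56785950 reads per RNA library, and the footprint sheets 185487 crosslinked reads in the control, 575990 in NES, 1741844 in H2B and 270633 in CX43. Of the fixed HEK293 markers, 5 of 6 were found, and in the 2017 bound libraries 3 were at or above 1 RPKM in every line. The HEK293 sum of bound RPKM in 2017 was also lowest in H2B, at 63.3 in the control, 48.6 in NES, 14.4 in H2B and 31.7 in CX43. Between H2B and NES 2 of these 5 were at least 2-fold higher and 3 lower (median -1.18). For H2B against the control 2 were higher and 1 lower (median -0.01). All 8 fibroblast markers had reads in every library. Their summed bound RPKM in 2017 was 106 in the control, 76.4 in NES, 2.98 in H2B and 36.6 in CX43, against 4.67 to 15.4 in the total RNA libraries. All 8 were at least 2-fold lower in H2B than in NES (median log2 difference -3.63) and in H2B than in the control (-3.43), and lower in CX43 than in NES in both tables (medians -2.02 and -1.90). Their part in the comparisons of zinc finger genes was not tested. The erythroid, leukocyte and hepatocyte lists of 3 genes each summed in bound RNA to at most 2.48, 0.546 and 0.605 RPKM, with 1 erythroid gene at 0 reads in each library, while the erythroid sum in 2017 total RNA was 8.5 to 34.5.

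Zinc finger mRNAs took a larger share of the protein-coding reads in bound than in total RNA, in the control as in the APEX2 lines. In 2017 they held 0.473% of protein-coding reads in bound RNA of the control, 0.427% in NES, 0.373% in H2B and 0.408% in CX43. In total RNA they held 0.101% in the control, 0.112% in NES, 0.0877% in H2B and 0.126% in CX43. Zinc finger genes of other chromosomes took 0.524% to 0.552% of bound and 0.12% to 0.167% of total reads, so the step between the fractions was not seen in chromosome 19 genes alone. Bound and total libraries also differ in preparation, since the total RNA was depleted of ribosomal RNA and the bound RNA was not. That difference cannot be told apart from the capture.

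RPKM is a read density scaled by gene length and by library depth. In 2017 the median zinc finger gene had 0.432 RPKM in bound RNA of the control, 0.256 in NES, 0.279 in H2B and 0.220 in CX43. The median over all protein-coding genes was lower in each line of that table, at 0.343, 0.229, 0.190 and 0.196 RPKM. In total RNA of 2017 the zinc finger medians were 0.0584, 0.0421, 0.0431 and 0.0606 RPKM in the same order, each below that of all protein-coding genes (0.0689, 0.0495, 0.0486 and 0.0620). In bound RNA of 2016 the zinc finger median was higher in CX43 (0.858 against 0.754 RPKM). It was slightly lower there in the control (0.852 against 0.901) and in NES (0.140 against 0.144). Behind the total RNA levels stood a median of 8.0 to 20.0 reads per gene in 2017 and of 2.0 in the single total RNA column of 2016. Bound RNA gave 36.0 to 100 reads per gene in 2017, which makes the bound values the firmer side of each difference. Over the 245 genes with a length, log2(RPKM + 0.1) of bound RNA correlated between the tables with r = 0.62 in the control, 0.72 in NES and 0.70 in CX43, against 0.87, 0.92 and 0.88 over 19027 protein-coding genes. These correlations are across genes and describe how far the tables repeat each other.

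**Figure D1:**
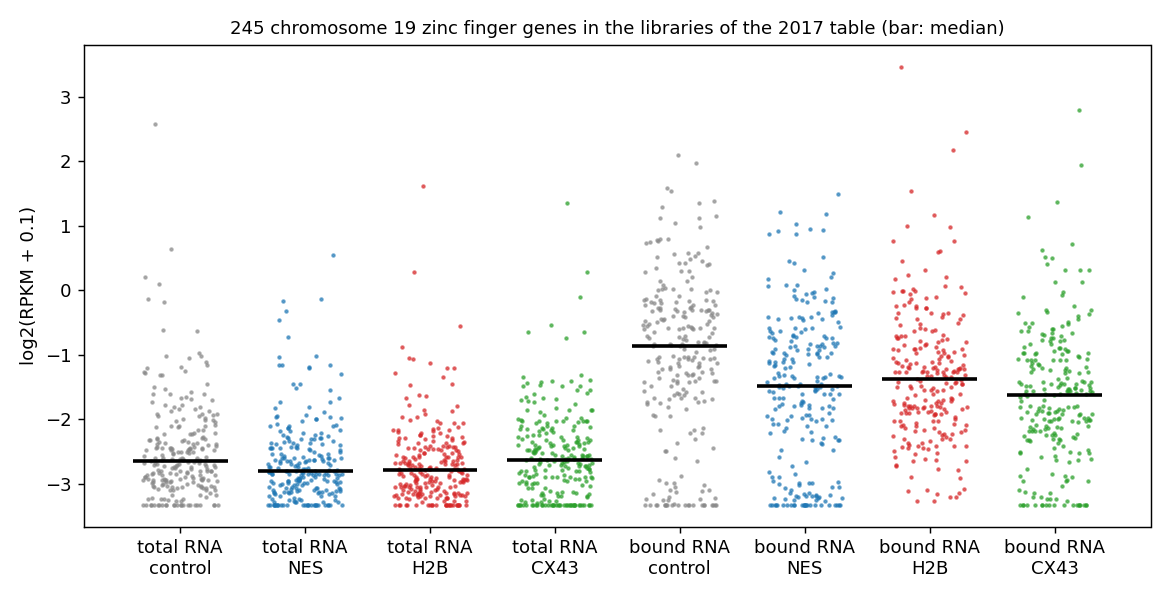
Level of each of 245 zinc finger genes (points) in the 8 libraries of the 2017 table, as log2(RPKM + 0.1), with the median as a bar. The bound RNA medians, 0.220 to 0.432 RPKM, lie above the total RNA medians, 0.0421 to 0.0606 RPKM, in every line including the control, and points on the lowest row are genes listed at 0.

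Per length, the highest mean bound levels in 2017 belonged to ZNF428, ZNF543, ZNF358, ZNF146 and ZNF91. ZNF428 stood at 3.84 RPKM in the control, 2.18 in NES, 11 in H2B and 6.89 in CX43. It was also the most abundant member of total RNA in the control at 5.91 RPKM. ZNF428 overlaps SRRM5 on the opposite strand. ZNF543, a KRAB zinc finger gene, was more even across the APEX2 lines, at 2.22 RPKM in NES, 1.91 in H2B and 2.10 in CX43, and highest in the control at 4.19. ZNF146, whose protein consists of zinc fingers with no KRAB domain, stood at 2.81 RPKM in the control, 1.82 in NES, 4.43 in H2B and 1.54 in CX43.

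Against its own total RNA, the median zinc finger gene lay slightly above the median of all genes in every line of the 2017 table, at a pseudocount of 0.1 RPKM. Each difference is log2(RPKM + 0.1) of bound minus total RNA, centred on the median of all genes tested, and genes were tested when the libraries compared held a mean of at least 10 reads. In 2017 the median over zinc finger genes was 0.34 in the control, 0.31 in NES, 0.27 in H2B and 0.22 in CX43. In 2016 it was -0.63 in the control, -0.48 in NES and -0.47 in CX43. The 2016 total RNA, with a median of 0.00409 RPKM over zinc finger genes and 0.00467 over all protein-coding genes, lay far below the added 0.1. The 2016 differences are therefore close to the bound level alone, and no direction against total RNA is read from them. The 2017 total RNA medians, 0.0421 to 0.0606 RPKM, also lay below 0.1, so the 2017 differences lean on the bound level too. With a pseudocount of 1 RPKM the 2017 medians were 0.01 in the control, -0.01 in NES, 0.04 in H2B and -0.01 in CX43. For H2B, which only the 2017 table holds, 28 of 212 zinc finger genes reached 2-fold higher levels in bound RNA, 13.2% against 17.1% of all genes tested, and 4 were lower, 1.89% against 19%. For NES 1 of 184 was higher in both tables (6.98% of all genes) and 5 lower (5.1%). For CX43 6 of 193 were higher (6.19%) and 5 lower (5.87%), and in the control 3 of 196 were higher (7.77%) and 8 lower (9.42%). These counts need both tables, so they cannot be set beside that of H2B. They also need the 2016 differences, from which no direction is read, so their small size is no result about these genes. In 2017 alone 28 were higher and 17 lower in NES, 30 and 14 in CX43, and 36 and 13 in the control. Over all genes tested these were 2830 and 3584 of 15135, 2352 and 3056 of 15877, and 3068 and 4207 of 16156.

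Between H2B and NES, which set the chromatin-side capture against the cytoplasmic one, more zinc finger genes were higher in H2B than lower. The total RNA of each line was subtracted first. Of 209 zinc finger genes with enough reads, 48 passed 2-fold higher in H2B (23%, where 25.2% of all 18000 genes tested were) and 23 at least 2-fold lower (11%, where 23.1% were). Among protein-coding genes 23.9% were higher and 21.8% lower. The share that was higher was thus near the background, and the share that was lower was about as low as for zinc finger genes of other chromosomes, where 66 of 223 were higher and 23 lower. The median difference was 0.26 on the log2 scale (quartiles -0.37 and 0.89), the same 0.26 as for zinc finger genes elsewhere. The other protein-coding genes of chromosome 19 went the other way, with 53 of 726 higher, 296 lower and a median of -0.73. Of the zinc finger genes, 23 lay just past and 27 just short of 2-fold, within a factor of 1.2, so the counts turn on many borderline genes.

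ZNF420, a KRAB zinc finger gene also known as APAK, had the largest difference between H2B and NES. Its bound RNA stood at 0.687 RPKM in H2B, 0.0582 in NES, 0.233 in the control and 0.264 in CX43, on 175 reads in H2B and 10 in NES. Its total RNA was 0.175 RPKM in H2B and 0.504 in NES, so both fractions added to a difference of 3.53 (counting SE 0.27). Each SE given here is of values with 0.1 RPKM added, so it understates the error of a ratio that rests on few reads. ZNF420 overlaps ZNF585A on the opposite strand.

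ZNF569, another KRAB zinc finger gene, differed by a similar amount on more reads. Bound RNA stood at 2.80 RPKM in H2B, 0.267 in NES, 0.622 in the control and 0.602 in CX43, on 922.7 estimated reads in H2B and 59.3 in NES, which gave a difference of 3.10 (SE 0.21). H2B was the only line of 2017 above 1 RPKM. ZNF570 begins within the span of ZNF569 on the opposite strand, and it too was higher in H2B, at 0.780 RPKM against 0.0237 in NES. That ratio of 32.9 rests on 3 reads in NES, and its exact 95% interval ran from 11 to 161. Whether the counting used strand is not stated, so reads of the overlap cannot be told apart.

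ZNF577 stood at 0.835 RPKM in bound RNA of H2B, 0.0177 in NES, 0.0773 in the control and 0.125 in CX43. The H2B value was the highest of the 4 and the other lines lay at or under 0.125, with a difference from NES of 2.94 (SE 0.21). It overlaps ZNF649 on the same strand. ZNF224, a KRAB repressor, was listed at 0.373 RPKM in H2B and 0.0396 in NES, but higher than either in the control at 1.34 and in CX43 at 0.834. Its ratio of H2B to NES, 9.43 with an interval of 2.56 to 41.1, rests on 2.5 estimated reads in NES, so it was NES that stood apart.

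Among members chosen by name, ZNF91, which represses SVA elements, had 5.42 RPKM in bound RNA of H2B against 1.34 in NES, 1.24 in the control and 1.33 in CX43. Its total RNA was 0.266 to 0.338 RPKM in all 4 lines, and the difference was 2.28 (SE 0.13). It rested on 3865.5 estimated bound reads in H2B and 643.0 in NES, the most of any gene named here. ZNF93, which represses LINE-1 elements, was at 0.258 RPKM in H2B and 0.00898 in NES on 2.0 reads, with 0.159 in the control and 0.440 in CX43. The ratio of H2B to NES was 28.7 with an interval of 7.69 to 240. ZNF331, an imprinted gene, stood at 0.942 RPKM in H2B, 0.300 in NES, 0.759 in the control and 0.229 in CX43. ZNF274, a KRAB protein that binds within zinc finger genes of this chromosome and recruits SETDB1 there, was at 0.885 RPKM in H2B, 0.693 in NES, 1.62 in the control and 0.431 in CX43, and was not 2-fold different between H2B and NES (0.25, SE 0.17).

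The members lowest in H2B beside NES were ZNF524, ZNF296, ZNF358, ZNF599 and ZNF559. ZNF524 stood at 0.0624 RPKM in bound RNA of H2B, 1.11 in NES and 1.13 in the control, and was listed at 0 in CX43, with a difference from NES of -2.82 (SE 0.30). Its total RNA had 0 reads in both H2B and NES. ZNF296, whose mouse counterpart is known from pluripotent cells, had 0.0876 RPKM in H2B and 1.74 in NES, with 1.23 in CX43 and 0.0237 in the control. It was thus low in H2B and in the control alike, and its difference was -2.71 (SE 0.40).

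ZNF358 stood at 0.747 RPKM in H2B and at 2.72 in NES, 2.91 in the control and 3.74 in CX43, with a difference from NES of -2.08 (SE 0.28). H2B was the lowest of the 4 lines, and with the GC trend removed the difference was -0.96, short of 2-fold. ZNF599 was at 0.0741 RPKM in H2B, 0.298 in NES, 0.380 in the control and 0.00400 in CX43. ZNF559, which overlaps ZNF177 on the same strand, was at 0.134 in H2B, 0.449 in NES, 0.102 in the control and 0.0141 in CX43. Both are KRAB zinc finger genes, and their differences between H2B and NES were -1.62 (SE 0.21) and -1.51 (SE 0.26). With a pseudocount of 1 RPKM, 6 of the 10 members furthest from 0 between H2B and NES fell short of 2-fold, namely ZNF577 (0.86), ZNF570 (0.79), ZNF224 (0.58), ZNF524 (-0.96), ZNF599 (-0.32) and ZNF559 (-0.37).

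**Figure D2:**
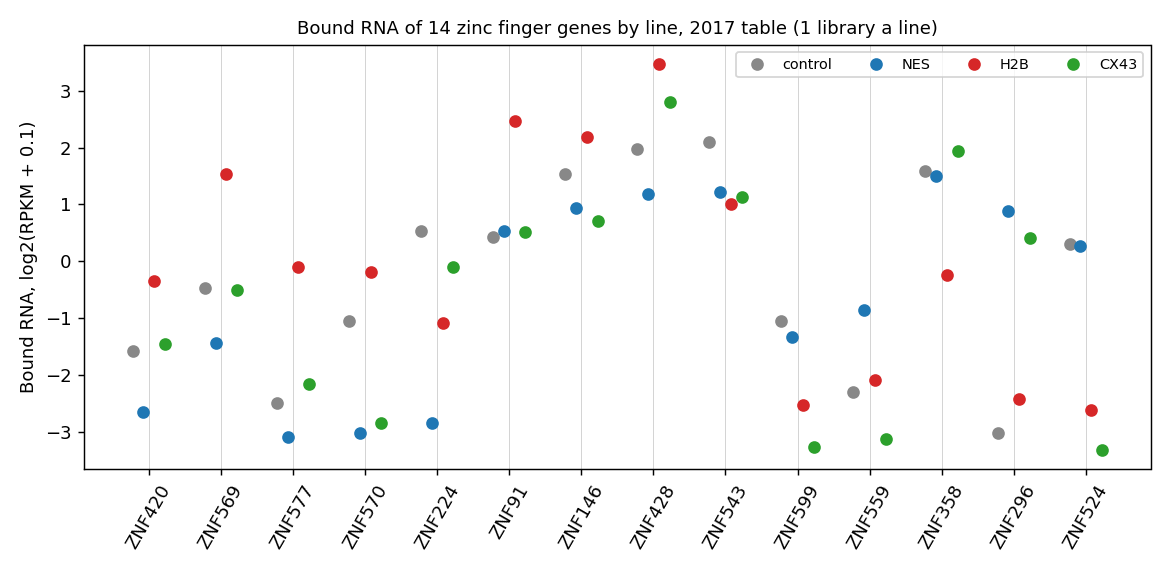
Bound RNA of 14 named zinc finger genes as log2(RPKM + 0.1) in the 4 lines of the 2017 table, 1 library a line and no error bar. From ZNF420 to ZNF428 the H2B point lies above the NES point, and from ZNF543 to ZNF524 below it, while the control can lie near either, as for ZNF224 (1.34 RPKM) and ZNF296 (0.0237 RPKM).

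GC content moved with these differences. The zinc finger genes had a median of 42.2% GC in the longest transcript, from 33.9% in ZNF681 to 71.1% in ZNF865, against 49.1% for other protein-coding genes and 44.8% for zinc finger genes elsewhere. Across the 209 genes tested, the difference between H2B and NES correlated with GC content with r = -0.36, and across 12850 protein-coding genes with r = -0.45. These points share their libraries. Of the 26 zinc finger genes above 49.0% GC, the median of all protein-coding genes, 2 were higher in H2B and 9 lower, with a median of -0.42. Of the 183 at or below it, 46 were higher and 14 lower, with a median of 0.34. Among protein-coding genes 9.04% were higher and 36.7% lower above this cut, near the 7.69% and 34.6% of zinc finger genes. At or below it 36.6% were higher and 9.01% lower (median 0.56), against 25.1% and 7.65% of zinc finger genes. With the GC trend of protein-coding genes removed, the median over zinc finger genes turned to -0.22, with 27 higher (background 21.4%) and 38 lower (background 20.2%). ZNF524 (64.9% GC), ZNF296 (68.1%) and ZNF358 (69.1%) lay at the GC-rich end, while ZNF428 was GC-rich (61.3%) and higher in H2B by 1.30 (SE 0.20).

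**Figure D3:**
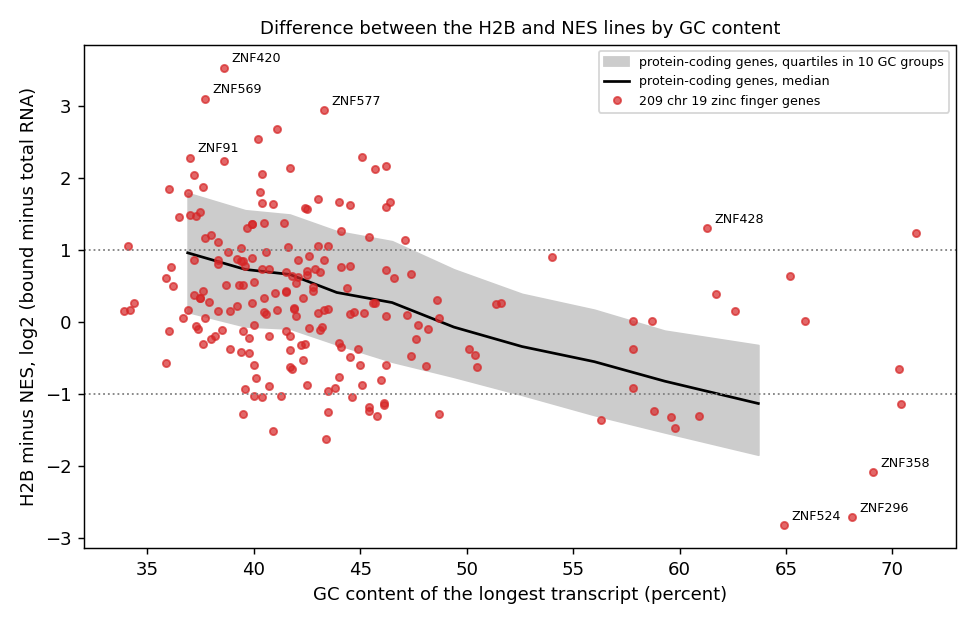
Difference between H2B and NES, bound minus total RNA on the log2 scale, against GC content of the longest transcript for 209 zinc finger genes (points), with the median (line) and quartiles (band) of protein-coding genes in 10 groups of 1285 by GC content. The protein-coding median falls from 0.96 in the group centred on 36.9% GC to -1.13 in that at 63.7%, and dotted lines mark 2-fold.

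Along the chromosome, the members formed 16 blocks when neighbours starting within 1 Mb were joined, and 7 blocks of at least 16 members held 227 of them. Coordinates are of hg19. The counts per block stand against 25.2% higher and 23.1% lower over all genes tested. The block from ZNF575 to ZNF296 (chr19:44029648-45579846), 24 members, had the highest median difference between H2B and NES of these 7, 0.85 over 20 tested, with 8 higher and 1 lower. Among the smaller blocks, that from ZNF546 to ZNF780A had 1.17 over 3 tested, and ZNF507, alone in its block, 1.03. ZNF45, ZNF224 and ZNF227 lie in the block from ZNF575 to ZNF296. The block from ZNF565 to ZNF573 (chr19:36673187-38307940), 26 members, had a median of 0.46 with 9 of 24 higher and 0 lower, and holds ZNF420, ZNF569, ZNF570 and ZNF146. The pericentromeric block from ZNF101 to ZNF254 (chr19:19779604-24312654), 36 members with the lowest median GC of the 7, 37.5%, had a median of 0.47 with 10 higher and 2 lower of 34, and holds ZNF91 and ZNF93. Protein-coding genes grouped by GC content had a higher median, 0.96, in the group centred on 36.9% GC. In the group at 39.6% it was 0.73, above the 0.46 of the block from ZNF565, whose median GC was 39.4%. For the block from ZNF575, at 42.7% GC, the group at 41.7% had 0.66, below its 0.85. The part of GC content in the block medians was not tested.

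The remaining large blocks lay closer to 0. The block next to the telomere, from ZNF628 to ZNF446 (chr19:55987698-58992595), was the largest with 58 members and had a median of 0.11, with 6 higher and 11 lower of 50. The block from ZNF653 to ZNF791 (chr19:11594241-12750912) had a median of 0.03 with 1 higher and 1 lower of 16, and that from ZNF557 to ZNF846 a median of -0.07 with 2 higher and 4 lower of 12. That from ZNF175 to ZNF331 had a median of 0.14 with 6 higher and 1 lower of 33. Members of a block overlap or share sequence in part, so they are not independent, and the difference between blocks was not tested. In all, 94 of the 248 members overlap another protein-coding gene.

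**Figure D4:**
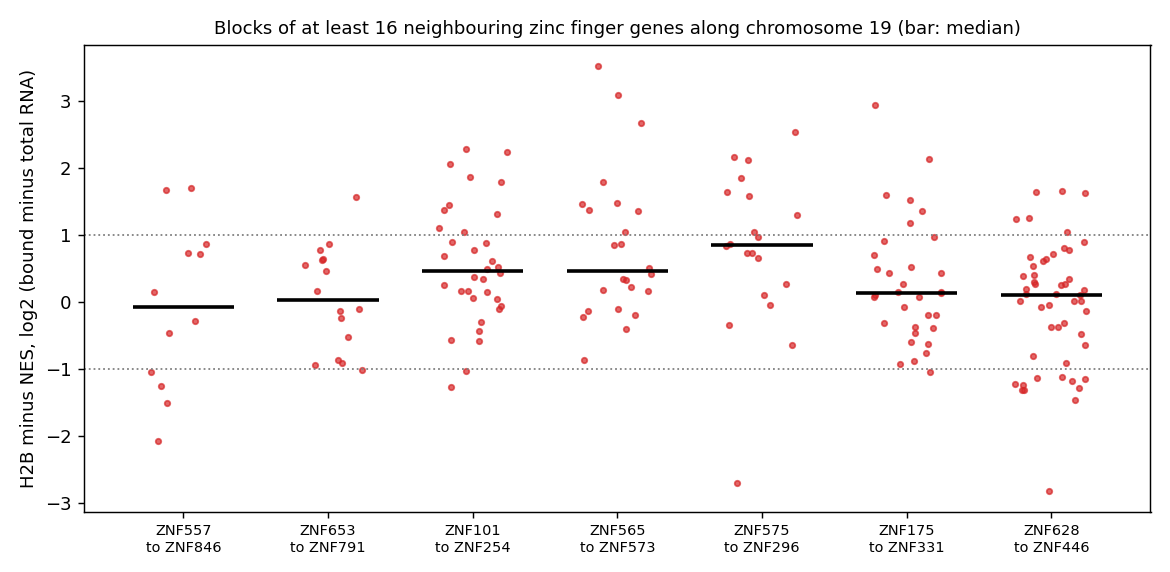
Difference between H2B and NES, bound minus total RNA on the log2 scale, of the zinc finger genes tested (points) in the 7 blocks of at least 16 neighbouring members, in order along chromosome 19, with the median as a bar. The medians run from -0.07 in the block starting at ZNF557 to 0.85 in that starting at ZNF575, points of all blocks overlap, and dotted lines mark 2-fold.

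Few zinc finger genes differed between CX43 and NES in both tables. Of 200 tested, 2 were at least 2-fold higher in CX43 (1%, background 1.44%) and 1 lower (0.5%, background 4.35%). The medians were 0.10 in 2016 and -0.07 in 2017. Without centring 17 were higher (background 10%) and 0 lower (background 0.164%). ZNF45, a KRAB zinc finger gene, had 4.21 RPKM in bound RNA of CX43 and 0.378 in NES in 2016, and 0.483 and 0.0295 in 2017, with differences of 1.16 (SE 0.10) and 2.40 (SE 0.24) after centring. In 2017 its NES level was also low beside the control (0.664) and H2B (0.725). ZNF569 was higher in CX43 by 1.01 (SE 0.12) in 2016 and 1.68 (SE 0.23) in 2017. ZNF730 was lower by -1.44 (SE 0.24) and -1.41 (SE 0.30), on 15 and 2.0 bound reads in CX43, and its 2017 ratio of NES to CX43 was 9.14 with an interval of 2.26 to 80.

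Against the control, the background of the capture, few members stood out in the NES and CX43 lines. Of 206 tested in NES, 5 passed 2-fold higher in both tables (2.43%, background 4.74%) and 0 lower (background 1.03%). They were ZNF296, ZNF792, ZNF628, ZNF428 and ZNF607. ZNF296 had 134.0 bound reads in NES and 2.0 in the control in 2017, a ratio of RPKM of 73.6 with an interval of 20 to 614, and 43.0 against 0 reads in 2016, where the RPKM was at least 2.99-fold higher against a floor of 3 reads. ZNF792, a KRAB zinc finger gene, had 50.7 reads in NES and 1.0 in the control in 2017, and differences of 1.69 (SE 0.25) in 2016 and 1.79 (SE 0.19) in 2017. ZNF628 was higher by 1.5 and 1.82, but in 2016 by 0.59 with the GC trend removed. ZNF428 was higher by 1.40 and 1.38, although its 2017 bound RNA was lower in NES (2.18 RPKM) than in the control (3.84), and its total RNA was 1.36 RPKM in NES against 5.91 in the control. For bound RNA alone ZNF428 differed by 1.38 in 2016 and -0.42 in 2017, and 3 members passed 2-fold higher in both tables (background 4.02%), namely ZNF296, ZNF792 and ZNF628.

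CX43 gave 13 of 210 higher than the control in both tables (6.19%, background 8.53%) and 2 lower (0.952%, background 6.29%). ZNF428 was higher in CX43 by 2.28 (SE 0.15) in 2016 and 3.59 (SE 0.18) in 2017, ZNF296 by 3.99 and 3.71, and ZNF628 by 2.40 and 3.92. The lower ones were ZNF714, by -2.41 and -1.49, and ZNF730, by -1.44 and -2.38. The GC-rich genes ZNF428, ZNF296 and ZNF628 were called higher in both comparisons, which share the control libraries.

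For H2B against the control, in the 2017 table, 46 of 221 zinc finger genes were at least 2-fold higher (20.8%, background 25.9%) and 22 lower (9.95%, background 20.7%), with a median of -0.03. This split turned with the scaling. It was 30 higher (background 24.1%) and 42 lower (20.3%) with the GC trend removed, and 27 (20.4%) and 43 (28.8%) without centring. With no read filter it was 29 (17.3%) and 58 (24.1%) of 245. Without centring and with no filter, more of all genes were lower than higher too. ZNF581 had the largest difference, 2.98 (SE 0.42), at 0.379 RPKM in H2B and 0.0593 in the control. Its control level did not repeat between the tables, since it was 3.35 RPKM in 2016. ZNF581 overlaps CCDC106 and ZNF580 on the same strand. ZNF577 was higher by 2.85 (SE 0.23) and ZNF428 by 2.78 (SE 0.16). Lower were ZNF524 by -1.78 (SE 0.38), ZNF358 by -1.70 (SE 0.27) and ZNF844 by -1.68 (SE 0.20), the last at 0.278 RPKM in H2B and 1.39 in the control.

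The footprints showed where along these transcripts proteins protected the RNA. A footprint cluster is a group of overlapping crosslinked reads called in 1 library, so a gene with no cluster has 0 reads in the sheet whatever its true occupancy. Zinc finger genes held 1.02% (exact 95% interval 0.975 to 1.07) of crosslinked reads in the control, 1.08% (1.06 to 1.11) in NES, 0.999% (0.985 to 1.01) in H2B and 1.12% (1.08 to 1.16) in CX43. Their share therefore differed little between lines, whereas other protein-coding genes of chromosome 19 held 9.37% in NES, 3.53% in H2B and 11.4% in CX43. At least 1 cluster was called in 95 of 247 members in the control, 131 in NES, 175 in H2B and 104 in CX43, in the order of control, CX43, NES and H2B that the depth of the sheets also follows. In all, 187 members had a cluster in some line, 69 in every line and 61 in none.

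Introns held more of the zinc finger clusters in H2B than in the other lines. Of 1917 clusters in H2B, 36.3% (95% interval 34.2 to 38.5) lay in introns, against 8.58% (6.53 to 11) of 641 in NES, 7.71% (5.15 to 11) of 350 in CX43 and 20.7% (16.1 to 25.9) of 285 in the control. Other protein-coding genes also had their highest intron share in H2B, 39.7%, and the next in the control, 14%, with 5.54% in NES and 9.52% in CX43. Counted by reads the order of the sets in H2B turned, with 27.9% for zinc finger genes and 20.1% for other protein-coding genes. Coding sequence held 24.8% of zinc finger clusters in H2B, 41% in NES, 38% in CX43 and 31.9% in the control. The 3′ UTR held 23.4% in H2B, 31% in NES, 33.7% in CX43 and 31.6% in the control. The interval in H2B, 21.5 to 25.3, lay below the 27.5% of other protein-coding genes, but counted by reads the shares were 27.4% and 27.3%.

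A larger share of zinc finger clusters lay in 5′ UTRs than of clusters in other genes. It was 8.74% (6.67 to 11.2) in NES, 8.86% (6.1 to 12.3) in CX43, 5.37% (4.41 to 6.48) in H2B and 5.26% (2.98 to 8.53) in the control. Other protein-coding genes had 4.11% in NES, 4.64% in CX43, 2.41% in H2B and 3.3% in the control, below the intervals of the zinc finger genes in the 3 APEX2 lines and inside that of the control. Zinc finger genes of other chromosomes had 4.67%, 4.46%, 3.58% and 4.79% in the same order. The clusters were spread over many members: 40 had a 5′ UTR cluster in NES, 68 in H2B, 21 in CX43 and 10 in the control, and no member had more than 9. ZNF45 held 9 of those in H2B and ZNF146 5 of those in CX43. Clusters of 1 gene are not independent, so these intervals are narrower than the spread between genes would give.

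**Figure D5:**
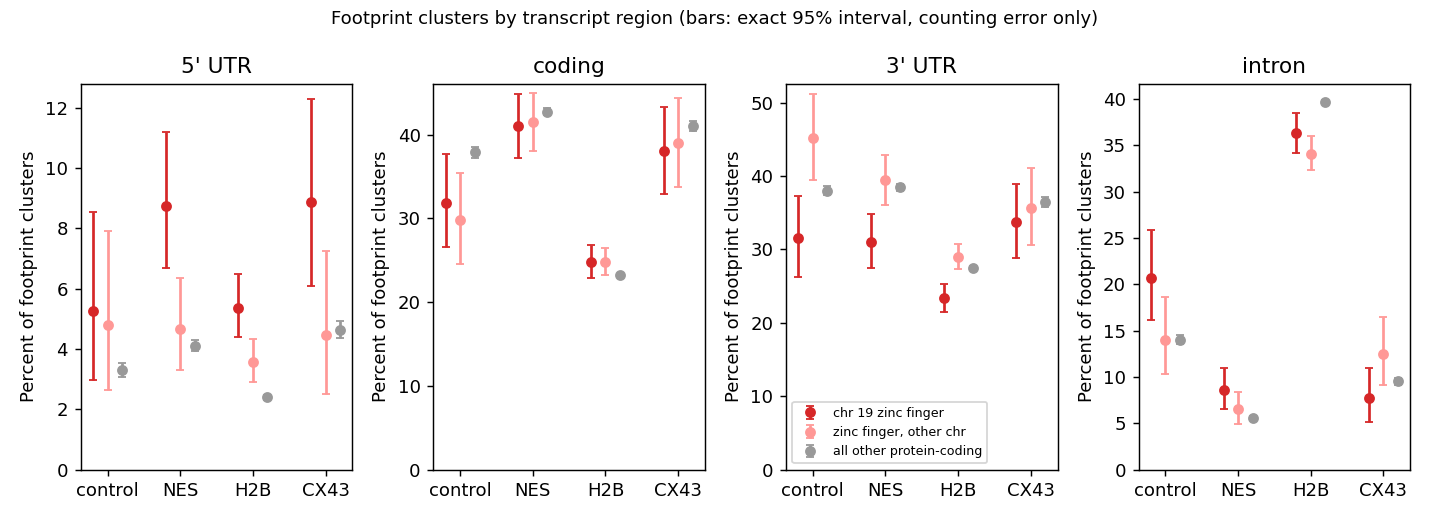
Percent of footprint clusters in introns, coding sequence and both UTRs in the 4 lines, for chromosome 19 zinc finger genes, zinc finger genes of other chromosomes and all other protein-coding genes, with exact 95% intervals that cover counting error only. The intron share of all 3 sets is highest in H2B (36.3% for chromosome 19 zinc finger genes). The 5′ UTR share of chromosome 19 zinc finger genes lies above that of other protein-coding genes in each line (8.74% against 4.11% in NES). The vertical scale differs between panels.

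ZNF146 had the most clusters, 166, and the most crosslinked reads, 3035, over the 4 sheets. It had 246 reads in the control, 602 in NES, 1867 in H2B and 320 in CX43. Of its 83 clusters in H2B 54 were intronic, against 6 of 30 in NES, 5 of 26 in CX43 and 13 of 27 in the control. ZNF146 lies within ZNF565 on the opposite strand. ZNF227 followed with 97, 339, 868 and 111 reads in the control, NES, H2B and CX43, and 15 of its 24 clusters in NES lay in coding sequence. ZNF529 had 53, 207, 734 and 94 reads in that order. ZNF460, a KRAB zinc finger gene, had 404 reads in NES and 309 in H2B, although the H2B sheet is the deeper, and 0 intron clusters in any line. ZNF507 had 102, 174, 581 and 42 reads, with 23 of 62 clusters in H2B in introns and 23 in the 3′ UTR.

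Single genes differed widely in where their H2B clusters lay. ZNF581 had 11 of 12 in introns, ZNF571 8 of 10 and ZNF544 44 of 55, and ZNF274 had 33 of 46 there against 0 of 8 in NES. ZNF526 had 8 of 10 in coding sequence, ZNF284 6 of 10 and ZNF331 10 of 19. ZNF587 had 13 of 15 in the 3′ UTR, ZNF772 12 of 17 and ZNF780A 10 of 16. These are the 3 members with the highest share for each region among those with at least 10 clusters, and their shares describe the choice. ZNF581 overlaps CCDC106 and ZNF580 on the same strand, and ZNF571 overlaps ZNF540 on the opposite strand. ZNF284, ZNF587 and ZNF772 also overlap other protein-coding genes. How clusters in such overlaps were assigned is not stated.

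Gene by gene, footprints of zinc finger genes differed between H2B and NES about as often as those of all genes. A member was called when its share of the reads in a sheet differed at least 4-fold with an exact 95% interval past 2-fold. Of 154 with at least 10 reads over both sheets, 22 were higher in H2B (background 16.7%) and 13 lower (background 10.6%). Higher were ZNF383 with 226 reads in H2B and 2 in NES, ZNF224 with 519 and 23, ZNF420 with 176 and 12, and ZNF471 with 114 and 0. Lower were ZNF317 with 29 reads in H2B and 127 in NES, ZNF776 with 74 and 156, and ZNF787 with 57 and 110. ZNF91 had 42 reads in H2B, none in NES or the control and 8 in CX43. ZNF383, ZNF471, ZNF317, ZNF776 and ZNF787 were chosen for mention after their values were seen.

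Bound RNA was compared for the same genes. Of the 22 members with higher footprints in H2B, 21 were tested in RNA, of which 9 were at least 2-fold higher in H2B and 1 lower, with a median of 0.80. Of all 209 members tested in RNA, 48 were higher and 23 lower, but these include members with too few footprint reads to be called. The same counts over all genes with such footprint calls were not made. All 13 with lower footprints were tested in RNA, where 0 were higher and 5 lower, with a median of -0.46. Their median GC content was 59.8%, against 40.1% for those with higher footprints, so GC content moved with the footprints too. Its part in either was not tested. Over 148 members the footprint and RNA differences correlated with r = 0.22, which is weak in sparse counts and no finding.

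Between the other lines the footprint calls were fewer. For CX43 against NES, 4 of 108 members were higher (background 6.27%) and 9 lower (background 11.6%), among them ZNF93 with 15 reads in CX43 and none in NES. For H2B against the control, 10 of 146 were higher (background 8.99%) and 9 lower (background 6.1%). ZNF420 and ZNF284 had 176 and 77 reads in H2B and none in the control. For NES against the control, 9 of 102 were higher (background 10.6%) and 7 lower (background 7.04%). ZNF772 had 126 reads in NES and 6 in the control, a ratio of shares of 6.76 (3.02 to 18.8), and ZNF569 had 28 and 38, a ratio of 0.237 (0.140 to 0.397).

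The corepressors that KRAB zinc finger proteins work with were counted beside them. Of the 21 on the list 20 were found, and between H2B and NES 7 were at least 2-fold higher and 1 lower, with a median of 0.66, where 25.2% of all genes tested were higher and 23.1% lower. TRIM28, itself on chromosome 19, was the lower one at -1.57 (SE 0.08), with bound RNA of 4.24 RPKM in H2B against 12.3 in NES, 14.2 in the control and 12.5 in CX43. Higher in H2B were CBX3, which encodes an HP1 protein, by 2.55 (SE 0.11), FAM208A, a subunit of the HUSH complex, by 2.67 (SE 0.15), and the deacetylase HDAC2 by 2.27 (SE 0.11). SETDB1 stood at 0.445 RPKM in H2B and 0.245 in NES. For H2B against the control 5 of the 20 were higher (background 25.9%) and 4 lower (background 20.7%), with a median of 0.56. Between CX43 and NES 1 of the 20 was higher in both tables (background 1.44%) and 0 lower (background 4.35%).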

How the data were processed

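HEK293 T-REx lines gave total RNA, bound RNA and footprint libraries, and the RNA kit was directional, per the labels' protocols. The submitters' processing notes name hg19, bcl2fastq 2.17.1 and TopHat. The sources used here do not give the counting tool, the multi-mapping rule or the cluster caller. The authors deposited expected counts (estimated reads per gene, with 0.001 standing for 0), RPKM, and whole-number counts of clusters and crosslinked reads per gene and region, pooled over long and short footprints. Columns were matched to lines by name. The single total RNA column of 2016 names no line and cancels between lines.

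Differences were computed with Python 3.11.15, pandas 2.3.3, numpy 2.4.6 and scipy 1.17.1 on log2(RPKM + 0.1), at a mean of at least 10 reads, centred on all genes tested. The pseudocount is low because most members lie below 1 RPKM. Between lines a call needed 2-fold, with 1 sign, in each table holding both lines. The median moved by centring was up to 2.29 between lines and 4.12 within a line on the log2 scale. Of 248 members, 184 to 221 passed the read filter, which favours those high in at least 1 library. Intervals are exact Clopper-Pearson or conditional binomial at 95%. PCR reads without molecular identifiers are not independent, so they cover counting error only.

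Named members were the 5 highest in bound RPKM, the 5 furthest each way between H2B and NES and up to 3 each way in other comparisons, the 5 with most footprint reads, the 3 with the highest share per region among those with at least 10 H2B clusters, and ZNF91, ZNF93, ZNF274 and ZNF331. Members and lists were chosen with earlier results of these data known. GC content came from GENCODE 29. Checks on simulated data preceded the analysis. Alternatives covered the pseudocount, the filter, GC content, centring, bound RNA alone and the footprint thresholds.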

Additional observations from a re-analysis of the deposited data

How the results depend on the processing

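No result has a replicate, so each median was held against its own counting interval (half-width 0.02 to 0.04), which is narrower than the spread of a median between the tables of 2016 and 2017 (SD 0.12 to 0.69). Of 122 alternatives to the main results, 33 stayed within that interval or within 1.5 times the count, 78 moved and 11 changed sign. The causes were not tested. Of 156 alternatives for named genes, 134 kept their call, 22 lost it and 0 changed sign. With a pseudocount of 1 RPKM the differences fell short of 2-fold for ZNF45 (0.62), ZNF569 (0.51) and ZNF730 (-0.17) in CX43 minus NES, ZNF577 (0.94), ZNF524 (-0.75) and ZNF844 (-0.75) in H2B minus control, ZNF792 (0.40) and ZNF628 (0.52) in NES minus control, and ZNF714 (-0.64) and ZNF730 (-0.38) in CX43 minus control. Not centred, ZNF792 (0.53), ZNF628 (0.45) and ZNF730 (-0.55) did so, and ZNF730 (-0.88) for bound RNA alone.

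With a pseudocount of 1 RPKM, bound minus total RNA had medians of 0.04 in H2B, -0.01 in NES, -0.01 in CX43 and 0.01 in the control (2016: -0.20 in NES and -0.58 in the control). H2B minus NES had 0.07 with 5 higher and 2 lower, CX43 minus NES 0.01 (2016: -0.20) with 1 and 0, and H2B minus control 5 and 1. Over all genes tested these shares were 9.39% and 8.34%, 0.437% and 0.498%, and 11.1% and 6.22%. NES minus control had -0.08 (2016: 0.39) and CX43 minus control -0.08 (2016: 0.11). Most members lie below 1 RPKM, so this pseudocount shrinks them by construction.

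With no filter, the medians within a line were 0.67 in H2B, 0.41 in NES and 0.58 in the control (2016: -0.15 in NES, -0.02 in CX43, -0.21 in the control). H2B minus NES had 0.02, CX43 minus NES 0.01 (2016: 0.29) with 7 higher and 3 lower, H2B minus control -0.37 with 29 and 58, NES minus control -0.17 (2016: -0.07) and CX43 minus control -0.37 (2016: 0.13). Of all genes 2.33% were higher and 5.12% lower in CX43 minus NES, and 17.3% and 24.1% in H2B minus control.

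With the GC trend removed, medians within a line were 0.08 in H2B, 0.43 in NES and 0.33 in CX43 (2016: -0.41 in NES and -0.35 in CX43). H2B minus NES had -0.22 with 27 higher and 38 lower, H2B minus control -0.34 with 30 and 42, NES minus control -0.13 (2016: 0.26) and CX43 minus control -0.14 (2016: 0.31). Of all genes 21.4% were higher and 20.2% lower in H2B minus NES, and 24.1% and 20.3% in H2B minus control.

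Not centred, H2B minus NES had 0.18, CX43 minus NES -0.34 (2016: 2.11) with 17 higher and 0 lower, H2B minus control -0.35 with 27 and 43, NES minus control -0.36 (2016: -2.11) and CX43 minus control -0.75 (2016: -0.08). Of all genes 10% were higher and 0.164% lower in CX43 minus NES, and 20.4% and 28.8% in H2B minus control. For bound RNA alone, H2B minus NES had 0.19, CX43 minus NES 0.03 (2016: 0.07) with 0 lower (2.3% of all genes), H2B minus control 0.11, NES minus control -0.27 and CX43 minus control -0.21. With reads in every library compared, a choice made after the data were seen, H2B minus NES had 0.20.

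Without ZNF146, zinc finger genes held 0.887% of footprint reads in the control, 0.98% in NES, 0.892% in H2B and 0.999% in CX43. Counted by clusters the shares were 1.37%, 1.42%, 1.43% and 1.51%. Counted by reads, introns held 5.19% in NES and 27.9% in H2B, where other protein-coding genes had 3.95% and 20.1%. The 3′ UTR held 27.4% in H2B, where other protein-coding genes had 27.3%. At 2-fold with an interval past 1, footprint calls were 82 for H2B against NES, 42 for CX43 against NES, 57 for H2B against control and 47 for NES against control. At 30 reads or more they were 5 for CX43 against NES and 8 for NES against control. No paired analysis was possible because every group is 1 sample.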
